A study of Mus musculus with 8 samples.

Results

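Chaperones are the proteins that fold other proteins and keep them from aggregating, and this account follows the genes of the heat shock proteins and their co-chaperones in muscle stem cells (MuSCs) after loss of innervation. The genes were chosen by symbol, with earlier results of these data known. They cover small heat shock proteins (*Hspb*), the HSP70 and HSP110 families (*Hspa*, *Hsph1*), HSP90, and the mitochondrial chaperonin pair *Hspd1* and *Hspe1*. Also included are the J-domain proteins (*Dnaja*, *Dnajb*, *Dnajc*) and the nucleotide exchange factors *Bag1* to *Bag6* and *Hspbp1*. Among the 55487 genes counted, 77 carried such a symbol, and 74 of them, with 10 or more counts in 3 or more of the 8 libraries, are described. DEN libraries came from MuSCs of young male C57BL/6 J mice 21 days after a piece of the sciatic nerve of 1 leg had been cut out. Sham libraries came from mice of the same strain, sex and interval whose nerve had been located but left intact. All mice of both groups are labelled as C57BL/6 in genotype, and 1 library was made per mouse, 4 in each group. In both groups hind limb muscle was digested with collagenase and dispase, and living α7-integrin+ Sca-1- CD11b- CD31- CD45- cells were sorted, so every library holds cells that had been warmed and digested before lysis. DEN replicate 1, which the study left out, is given apart, and DEN below means replicates 2 to 4.

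As background, HSP70 proteins bind exposed hydrophobic stretches of unfolded proteins, J-domain proteins bring them their clients and trigger ATP hydrolysis, and BAG proteins release the nucleotide again. HSP90 acts later on client proteins such as kinases and receptors, and small heat shock proteins hold unfolded proteins without using ATP. Many, but not all, of these genes are switched on by heat shock factor 1 when proteins misfold, and several small heat shock proteins are known best from skeletal and cardiac muscle, where they act at the sarcomere.

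Total counts were between 28541080 and 31572843 in DEN, between 29048620 and 34145854 in Sham and 26627173 in DEN replicate 1. The described genes took between 0.858% and 0.954% of counts in DEN and between 0.755% and 1.02% in Sham. *Pax7*, which marks MuSCs, was present in all libraries (139, 132 and 157 CPM in DEN, 152, 114, 131 and 105 CPM in Sham). CPM here means normalised counts, scaled to the TMM-adjusted size of each library. Of the 10 MuSC markers 2 were higher and 1 was lower in DEN, and they summed to 7183 to 8059 CPM in DEN and 6491 to 7621 CPM in Sham. Transcripts of other cell types were present. The summed level of 10 adult myofiber markers was between 953 and 1026 CPM in DEN and between 254 and 417 CPM in Sham, with 9 of the 10 higher and none lower in DEN, and none of them was at 0. The 8 genes listed for smooth muscle and pericytes, *Des* and *Notch3* among them, summed to 7997 to 8492 CPM in DEN and 8629 to 10862 CPM in Sham. Of these 2 were lower in DEN, and whether the transcripts came from such cells or from the MuSCs was not tested. Of 24 immediate early genes tested 17 were higher in DEN, and their summed level was 9462 to 10243 CPM in DEN against 1641 to 2591 CPM in Sham. Of 7 erythroid markers 5 were lower in DEN, and they summed to 1957 to 2964 CPM in DEN and 5070 to 10199 CPM in Sham. Of 7 markers of Schwann cells and glia 3 were higher and 2 lower (145 to 291 CPM in DEN, 263 to 383 CPM in Sham), and of 6 markers of fibro-adipogenic progenitors 1 was higher and 1 lower (498 to 640 CPM in DEN, 637 to 743 CPM in Sham). Of 10 macrophage and myeloid markers 6 were tested and 1 was higher. The 10 summed to 3.14 to 120 CPM in DEN, with the high value in replicate 2, and to 15.1 to 50.8 CPM in Sham. Genes of the mitochondrial genome took 2.35% to 2.84% of counts in DEN and 3.67% to 5.99% in Sham. The part of any of these in the values below was not tested.

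After DEN the share of chaperone genes that changed was close to that of all genes, and of the genes that passed 3 were small heat shock proteins, 3 were HSP70 genes and 1 was a J-domain gene. In edgeR's quasi-likelihood test, with Benjamini-Hochberg adjustment over all 17454 genes tested and a threshold of 0.05, 7 of 74 genes passed (9.46%), against 10.6% of all genes tested, and DESeq2 called as many members, against 13.2% of all genes it tested. *Hspb7*, *Hspb8*, *Hspb6*, *Dnajb1* and *Hspa2* were higher (6.76%, against 5.29% of all genes), and *Hspa12a* and *Hspa12b* were lower (2.70%, against 5.32% of all genes). The median log2 fold change, DEN over Sham, was 0.02 over the 74 genes and -0.0010 over all genes tested. DEN and Sham values did not overlap for 17 of the 74 genes (23.0%), 9 of them higher and 8 lower, against 23.4% of all genes. For 53 of the 67 genes that did not pass, the 95% interval of the fold change lay within 1.5-fold in either direction, and for 61 within 2-fold, while 12 had an unadjusted p under 0.05. The share of all genes tested with an unadjusted p under 0.05 is not given here. This count and the like counts below therefore have no background beside them. All 74 genes passed the filter on low counts used in the fit. The least abundant of them, just inside the rule, were *Hspb3* (at most 15 counts in any library), *Dnajb7* (at most 17), *Dnajb13* (at most 25) and *Dnajc6* (at most 34). Just outside it stood *Dnajb8* and *Hspb9* with at most 1 count and *Dnajc22* with none.

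**Figure D1:**
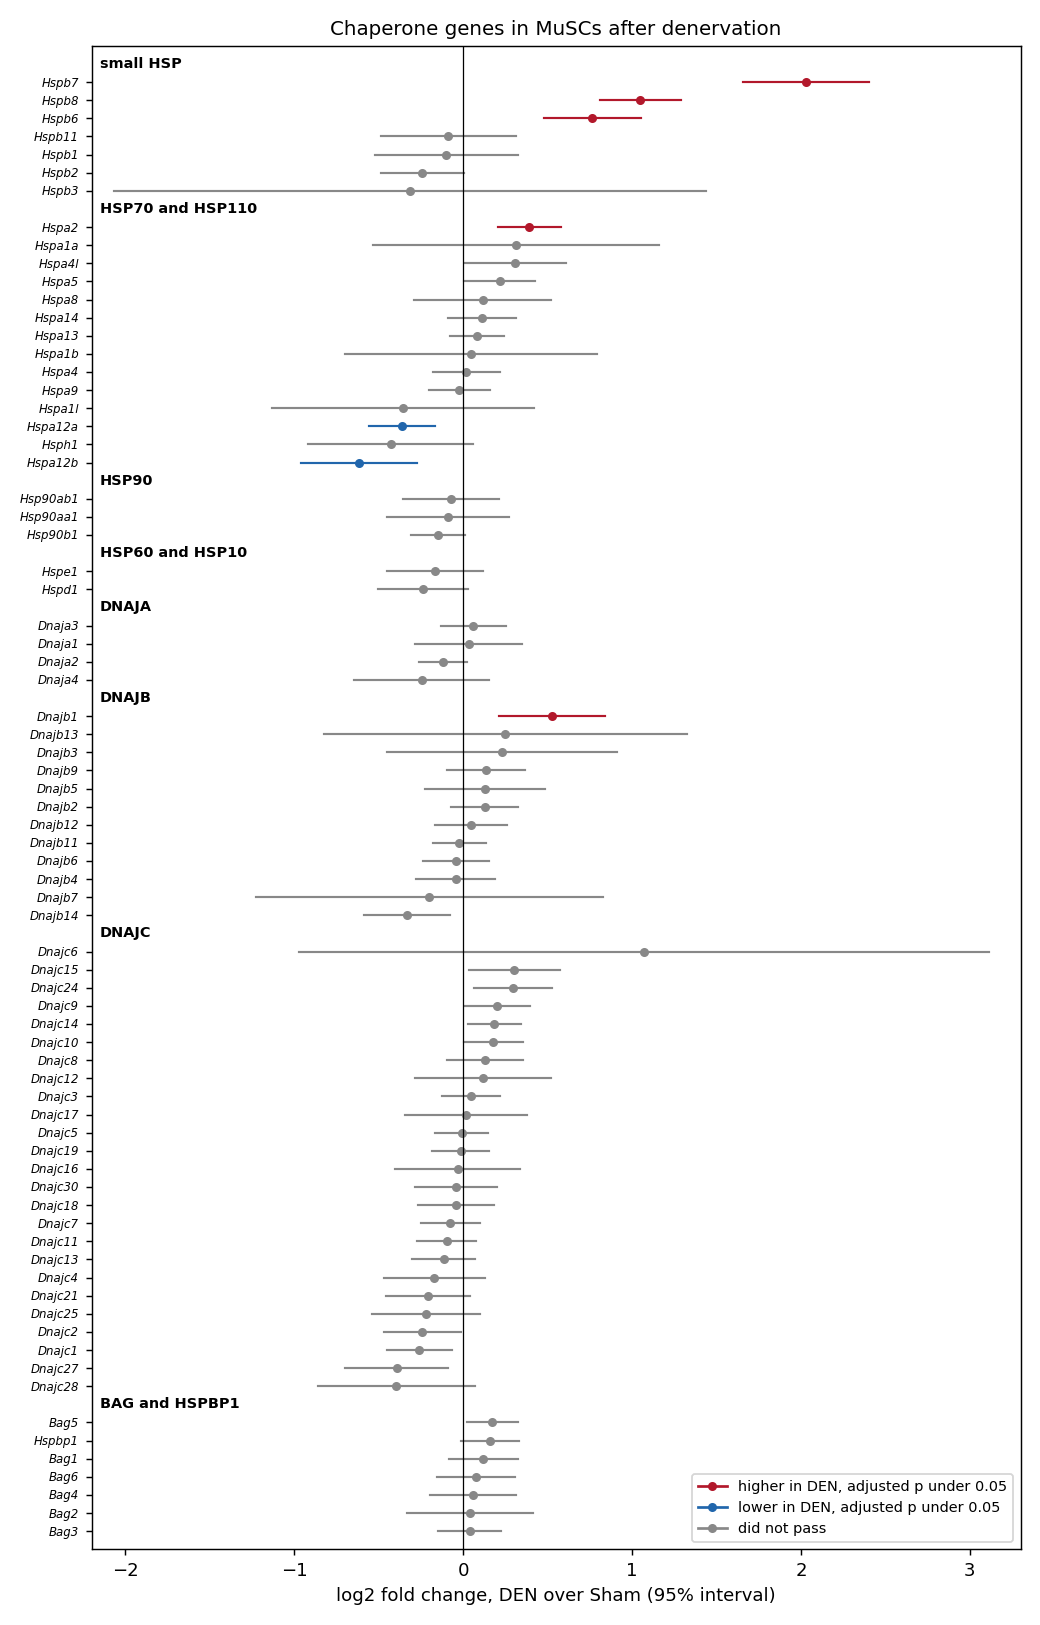
Log2 fold change, DEN over Sham, of each of the 74 chaperone genes with its 95% interval, ordered by family (red, higher; blue, lower; grey, did not pass). The 3 small heat shock proteins *Hspb7* (2.03), *Hspb8* (1.05) and *Hspb6* (0.77) stand farthest to the right among the genes that passed, and most other points lie close to 0.

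The small heat shock proteins held the 3 largest changes that passed. Of 7 family members 3 were higher, none was lower and 4 did not pass. *Hspb7*, known as a heart and skeletal muscle member that binds actin-associated proteins, was at 16.9, 14.6 and 15.8 CPM in DEN and at 2.903, 4.08, 3.79 and 4.65 CPM in Sham. The lowest DEN library was more than 3 times above the highest Sham library, and the fold change was 4.09 (log2 2.03 ± 0.17, SE, adjusted p = 0.000104). *Hspb8*, which works with *Bag3* in the autophagic removal of damaged sarcomere proteins, was at 37.8, 34.9 and 41.7 CPM in DEN and at 20.7, 18.4, 17.2 and 17.4 CPM in Sham. Here too every DEN library was above every Sham library (2.07-fold, log2 1.05 ± 0.11, SE, adjusted p = 0.000282). *Hspb6*, also called HSP20 and a substrate of cyclic nucleotide-dependent kinases in muscle, was at 27.0, 34.97 and 28.0 CPM in DEN and at 20.4, 17.9, 15.6 and 16.7 CPM in Sham, again without overlap (1.70-fold, log2 0.77 ± 0.13, SE, adjusted p = 0.00486). These 3 genes passed in each of 14 alternative settings, with log2 fold changes of 1.91 to 2.13 for *Hspb7*, 0.98 to 1.11 for *Hspb8* and 0.64 to 0.85 for *Hspb6*. Adult myofiber markers were higher in the same libraries, with *Mb* (myoglobin) at 33.3, 36.1 and 31.6 CPM in DEN and 5.87, 5.42, 6.99 and 5.33 CPM in Sham, and their part in these 3 genes was not tested. Among the Sham libraries, replicate 4 had the highest myofiber sum (417 CPM) and also the highest *Hspb7* value, whereas *Hspb8* and *Hspb6* were highest in replicate 1. Sham replicate 1, with the next highest sum (334 CPM), had the lowest *Hspb7* value (2.903 CPM). In DEN, the sum was highest in replicate 4 (1026 CPM) and *Hspb7* in replicate 2 (16.9 CPM). DEN replicate 1 had a sum of 1215 CPM, with *Hspb7* at 12.0 CPM. In bulk libraries, more cells with a transcript and more transcript per cell cannot be told apart.

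*Hspb1* (HSP27), the small heat shock protein gene with the highest CPM and RPKM, was at 188, 219 and 272 CPM in DEN and at 284, 231, 293 and 162 CPM in Sham, and the groups overlapped (log2 -0.10 ± 0.19, SE, adjusted p = 0.810). *Hspb2*, a muscle member that sits head to head with *Cryab*, had 11.53, 12.75 and 12.46 CPM in DEN and 14.001, 13.92, 15.03 and 14.998 CPM in Sham. These values did not overlap, but the difference did not pass (log2 -0.24 ± 0.11, SE, adjusted p = 0.202), and 30.2% of the exonic bases of *Hspb2* are shared with *Cryab*. *Hspb11*, a ciliary transport subunit despite its symbol, was at 7.01 to 8.91 CPM in DEN and 6.502 to 10.4 CPM in Sham, and *Hspb3* stayed at or under 0.509 CPM in every library. *Cryab*, the αB-crystallin of muscle and a close relative of this family, averaged 157 ± 29.1 CPM in DEN and 172 ± 12.3 CPM in Sham (SD, n = 3 and 4, log2 -0.14, adjusted p = 0.523 in edgeR), and the lens gene *Cryaa* had no count.

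**Figure D2:**
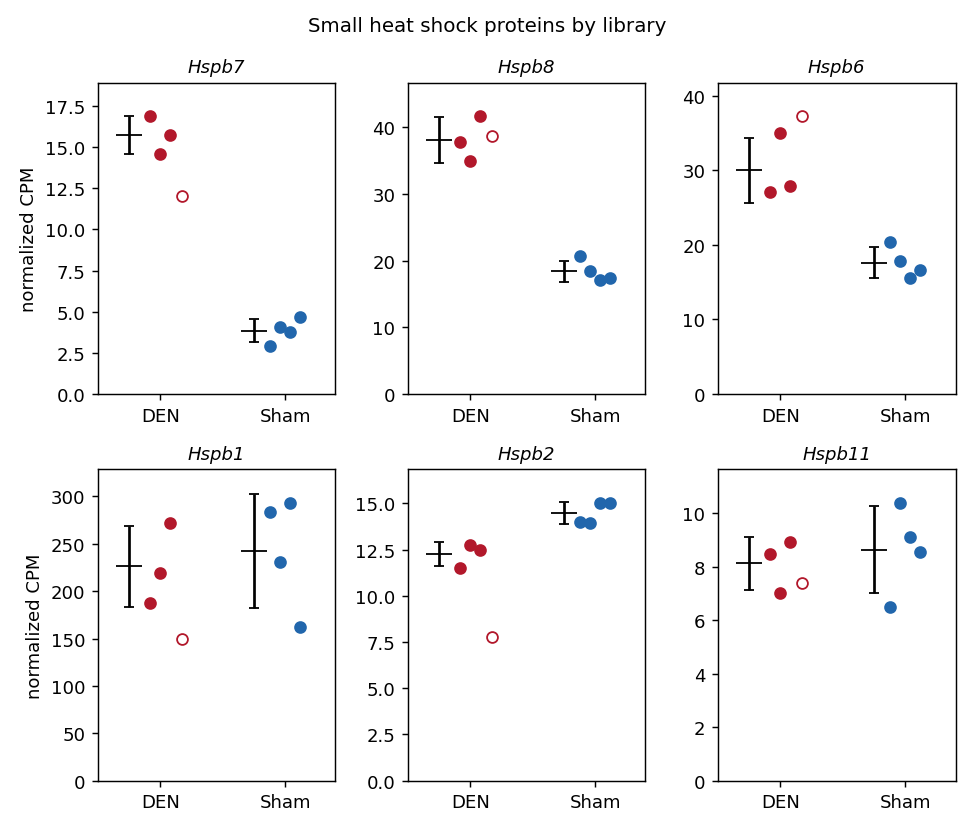
CPM of small heat shock protein genes in each library (filled points, DEN replicates 2 to 4 and Sham replicates 1 to 4; open circle, DEN replicate 1; bar, mean ± SD). For *Hspb7*, *Hspb8* and *Hspb6* the DEN points lie above all Sham points, while for *Hspb1* the DEN points (188 to 272 CPM) fall within the Sham range (162 to 293 CPM).

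The genes of the 3 called members lie apart from each other in the genome (GRCm38, GENCODE M21): *Hspb7* at chr4:141420779-141425311 on the plus strand, *Hspb8* at chr5:116408491-116422864 on the minus strand and *Hspb6* at chr7:30552178-30555443 on the plus strand. No stretch of 75 bases, the read length, in the exons of *Hspb7* or *Hspb8* occurs in another gene. For *Hspb6* 2.68% of such stretches do, mainly in *Proser3*, whose exons overlap those of *Hspb6* on the opposite strand over 122 bases, and since counting did not use strand, reads from those bases cannot be assigned. The promoters of these genes and of *Hspb1* are shown because heat shock factors bind inverted repeats of nGAAn, and the 4 genes differ both in their response and in whether they hold such a repeat. The 300 bases run from 250 before to 50 after the RefSeq start (GRCm38.p6), with capitals marking each GAANNTTC or TTCNNGAA, the pair of units searched on both strands: chr4:141420529-141420828 (+) for *Hspb7*, chr5:116422815-116423114 (-) for *Hspb8*, chr7:30553051-30553350 (+) for the second of 2 starts of *Hspb6* and chr5:135887669-135887968 (+) for *Hspb1*.
Hspb7: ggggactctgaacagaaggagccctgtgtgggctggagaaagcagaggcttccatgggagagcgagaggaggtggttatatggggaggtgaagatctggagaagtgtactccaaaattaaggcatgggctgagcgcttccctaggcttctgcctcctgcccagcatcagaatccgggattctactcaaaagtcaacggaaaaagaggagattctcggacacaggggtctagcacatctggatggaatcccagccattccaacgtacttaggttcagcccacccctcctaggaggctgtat
Hspb8: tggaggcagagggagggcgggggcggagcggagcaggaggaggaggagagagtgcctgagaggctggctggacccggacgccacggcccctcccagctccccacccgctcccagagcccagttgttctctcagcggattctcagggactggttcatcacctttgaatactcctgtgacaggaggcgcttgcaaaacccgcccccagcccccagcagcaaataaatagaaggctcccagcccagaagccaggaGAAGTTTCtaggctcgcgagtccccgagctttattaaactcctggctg
Hspb6: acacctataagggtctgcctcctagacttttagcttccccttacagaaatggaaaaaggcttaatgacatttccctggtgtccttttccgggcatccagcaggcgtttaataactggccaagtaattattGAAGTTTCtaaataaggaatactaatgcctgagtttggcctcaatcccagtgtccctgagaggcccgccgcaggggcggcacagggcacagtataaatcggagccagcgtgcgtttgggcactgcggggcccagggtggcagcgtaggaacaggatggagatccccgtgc
Hspb1: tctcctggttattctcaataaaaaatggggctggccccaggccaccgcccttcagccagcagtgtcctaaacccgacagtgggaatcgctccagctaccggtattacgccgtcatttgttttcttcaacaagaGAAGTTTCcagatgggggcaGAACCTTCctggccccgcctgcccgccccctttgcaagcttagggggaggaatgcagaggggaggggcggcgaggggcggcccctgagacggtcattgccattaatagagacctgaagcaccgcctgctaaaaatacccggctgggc
*Hspb7*, with the largest fold change of the called genes, had no such pair in its window. *Hspb8* had 1, starting at position 3 relative to the start, *Hspb6* had 1 at -120 in this window and none in its other window, and *Hspb1*, which did not pass, had 2, at -117 and -97. A match is a string of letters and not a bound site, and 16.97% of all 27025 genes with a RefSeq promoter have the pair in at least 1 window.

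Among the 14 HSP70 and HSP110 genes, 1 was higher, 2 were lower and 11 did not pass. *Hspa2*, an HSP70 best known from spermatocytes, was at 57.9, 60.9 and 65.3 CPM in DEN and at 45.6, 47.6, 50.5 and 43.3 CPM in Sham, with no overlap (log2 0.39 ± 0.08, SE, adjusted p = 0.0144 in edgeR). Without DEN replicate 4 the difference no longer passed (log2 0.35, adjusted p = 0.0553). *Hspa12a*, a distant HSP70 relative with an atypical ATPase domain, went the other way, with 65.8, 70.4 and 65.9 CPM in DEN and 98.0, 79.4, 87.3 and 81.6 CPM in Sham (log2 -0.36 ± 0.09, SE, adjusted p = 0.0259 in edgeR). Its groups did not overlap either. Leaving out 1 library ended this call in 4 cases (adjusted p = 0.0952 without DEN replicate 2, 0.0534 without DEN replicate 3, 0.0837 without DEN replicate 4 and 0.056 without Sham replicate 3). Its closest relative *Hspa12b*, known from endothelial cells, was at 6.63, 5.36 and 6.98 CPM in DEN and 8.65, 9.44, 9.78 and 10.96 CPM in Sham (log2 -0.62 ± 0.15, SE, adjusted p = 0.0299 in edgeR). This call was lost without DEN replicate 2 (adjusted p = 0.0755), DEN replicate 3 (0.0978), Sham replicate 2 (0.06), Sham replicate 3 (0.0622) or Sham replicate 4 (0.0747), and with DEN replicate 1 added (0.0731). The 7 endothelial markers, none at 0, summed to 170 to 191 CPM in DEN, 188 to 237 CPM in Sham and 251 CPM in DEN replicate 1, with none called by edgeR, 2 called by DESeq2 and 2 with an unadjusted p under 0.05, and their part in the values of *Hspa12b* was not tested.

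The abundant HSP70 genes did not pass. *Hspa8* (HSC70), the constitutive cytosolic member that also uncoats clathrin vesicles, was at 1656, 1657 and 1911 CPM in DEN and at 2174, 1585, 1094 and 1581 CPM in Sham. The Sham libraries alone spanned a 1.99-fold range between replicates 1 and 3, and the DEN values fell inside it (log2 0.11 ± 0.18, SE, adjusted p = 0.764). *Hspa5* (BiP), the HSP70 of the endoplasmic reticulum (ER), was at 773, 854 and 857 CPM in DEN and 792, 716, 604 and 737 CPM in Sham (log2 0.22 ± 0.10, SE, adjusted p = 0.185). *Hspa9* (mortalin), which pulls proteins into mitochondria, averaged 401 ± 13.2 CPM in DEN and 408 ± 36.2 CPM in Sham (SD, n = 3 and 4, log2 -0.02, adjusted p = 0.903 in edgeR). The HSP110 gene *Hsph1*, a nucleotide exchange factor for HSP70, had 60.0, 47.1 and 64.4 CPM in DEN and 109, 74.8, 49.1 and 75.1 CPM in Sham, the largest negative estimate of this group beside *Hspa12b*, but with an interval that included 0 (log2 -0.43, 95% interval -0.92 to 0.06, adjusted p = 0.256).

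The strictly inducible pair *Hspa1a* and *Hspa1b* varied more within groups than between them. *Hspa1a* was at 95.8, 71.0 and 165 CPM in DEN and at 148, 105, 49.3 and 53.2 CPM in Sham (log2 0.31, 95% interval -0.53 to 1.16, adjusted p = 0.684). *Hspa1b* was at 96.04, 72.2 and 145 CPM in DEN and at 160, 119, 57.5 and 67.7 CPM in Sham (log2 0.05 ± 0.34, SE, adjusted p = 0.955). In both, DEN replicate 4 and Sham replicate 1 were the high libraries, and DEN replicate 3 and Sham replicate 3 the low ones of their group. Of the 75-base stretches of *Hspa1a* 61.7% occur in another gene, 52.7% in *Hspa1b*, so a read is often not unique to either. Their sum was 192, 143 and 310 CPM in DEN and 308, 224, 107 and 121 CPM in Sham (log2 0.18 ± 0.36, SE, adjusted p = 0.819). The intervals leave room for changes of more than 1.5-fold in these genes, and a difference of that size was not detectable with this spread. The promoters of the pair, on the minus strand at chr17:34972107-34972406 and chr17:34959189-34959488 in GRCm38.p6, are printed because they were identical at 296 of 300 bases (98.7%), with the paired units in capitals at -104 in both.
Hspa1a: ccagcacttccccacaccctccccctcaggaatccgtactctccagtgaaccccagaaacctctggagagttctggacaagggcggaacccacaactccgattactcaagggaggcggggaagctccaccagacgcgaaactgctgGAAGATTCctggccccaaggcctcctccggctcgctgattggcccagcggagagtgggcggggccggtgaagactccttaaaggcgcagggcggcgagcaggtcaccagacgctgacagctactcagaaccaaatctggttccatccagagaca
Hspa1b: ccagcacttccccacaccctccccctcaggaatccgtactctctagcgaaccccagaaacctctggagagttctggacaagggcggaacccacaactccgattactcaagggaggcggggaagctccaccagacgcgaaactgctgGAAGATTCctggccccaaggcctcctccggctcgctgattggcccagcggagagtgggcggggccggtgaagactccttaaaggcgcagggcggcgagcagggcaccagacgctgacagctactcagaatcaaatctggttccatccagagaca
The copies thus share their promoter as well as much of their transcript, and their CPM values placed the 7 libraries in nearly the same order.

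**Figure D3:**
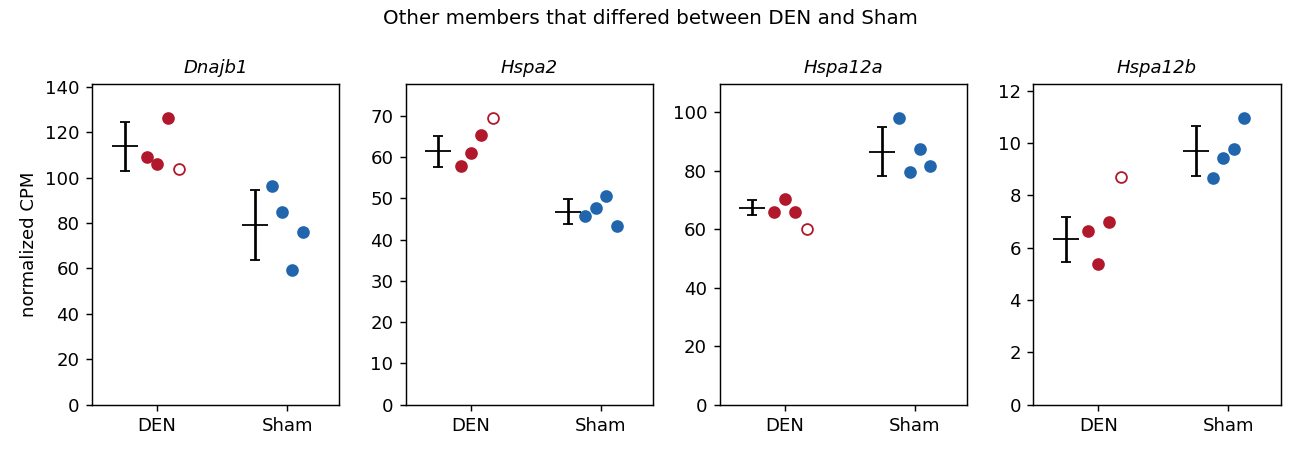
CPM of HSP70 and J-domain genes in each library (filled points, DEN replicates 2 to 4 and Sham replicates 1 to 4; open circle, DEN replicate 1; bar, mean ± SD). *Hspa2* and *Dnajb1* lie higher in DEN and *Hspa12a* and *Hspa12b* lower.

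The J-domain proteins, which hand clients to HSP70, held 1 called gene among 41. *Dnajb1* (HSP40), the partner of cytosolic HSP70 in refolding, was at 109, 106 and 126 CPM in DEN and at 96.4, 84.9, 59.5 and 75.9 CPM in Sham. All DEN libraries lay above all Sham libraries, but the gap between the lowest DEN and the highest Sham library was small beside the Sham range (log2 0.52 ± 0.14, SE, adjusted p = 0.0404 in edgeR). The call was lost without DEN replicate 2 (adjusted p = 0.086), DEN replicate 3 (0.0709), DEN replicate 4 (0.141), Sham replicate 2 (0.0647) or Sham replicate 4 (0.0911), with log2 fold changes between 0.41 and 0.63 over the 7 fits that left out 1 library. Neither of its 2 promoter windows held the paired units. The other 11 *Dnajb* genes did not pass, and of these the highest CPM were those of *Dnajb6*, a suppressor of aggregation that is mutated in a human limb-girdle muscular dystrophy (118 ± 11.2 CPM in DEN, 122 ± 9.50 CPM in Sham, SD, n = 3 and 4), and *Dnajb11*, a partner of BiP in the ER (87.4 ± 4.92 CPM in DEN, 88.8 ± 2.77 CPM in Sham). *Dnajb14*, of the ER membrane, came closest with 20.1, 18.7 and 20.4 CPM in DEN against 24.2, 21.5, 26.2 and 27.9 CPM in Sham, without overlap (log2 -0.33 ± 0.11, SE, adjusted p = 0.0946).

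None of the 4 *Dnaja* genes was called by edgeR or DESeq2, and none had an unadjusted p under 0.05. *Dnaja1*, the main inducible member, averaged 197 ± 24.5 CPM in DEN and 192 ± 36.4 CPM in Sham (SD, n = 3 and 4, log2 0.03). *Dnaja2* averaged 155 ± 5.19 CPM in DEN and 168 ± 4.93 CPM in Sham, without overlap (log2 -0.12, adjusted p = 0.271 in edgeR), and the mitochondrial *Dnaja3* 127 ± 4.22 CPM in DEN and 122 ± 12.1 CPM in Sham (log2 0.06). Of the 25 *Dnajc* genes, a family whose members share little but the J domain, none was called by edgeR or by DESeq2 and 8 had an unadjusted p under 0.05. Their median log2 fold change was -0.03, with 10 positive and 15 negative estimates. The highest CPM were those of *Dnajc10*, an ER reductase (196 ± 18.9 CPM in DEN, 173 ± 7.29 CPM in Sham, SD, n = 3 and 4), *Dnajc3*, an ER inhibitor of the kinase PERK (180 ± 8.85 CPM in DEN, 175 ± 12.51 CPM in Sham), and *Dnajc8*, a spliceosome factor (125 ± 19.98 CPM in DEN, 114 ± 5.86 CPM in Sham). Closest to the threshold were *Dnajc1* of the ER membrane, with 39.1, 40.0 and 42.1 CPM in DEN and 44.8, 49.2, 53.4 and 46.0 CPM in Sham (log2 -0.26 ± 0.09, SE, adjusted p = 0.0902), and *Dnajc27*, a small GTPase with a J domain (log2 -0.39 ± 0.14, SE, adjusted p = 0.0988). In the opposite direction, *Dnajc24*, which takes part in diphthamide synthesis, had 16.3, 15.3 and 16.2 CPM in DEN and 12.9, 13.5, 12.6 and 13.0 CPM in Sham, without overlap (log2 0.29 ± 0.10, SE, adjusted p = 0.106). These genes close to the threshold were chosen after their values were seen.

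The 3 HSP90 genes did not pass in edgeR or DESeq2, and none had an unadjusted p under 0.05. The constitutive cytosolic *Hsp90ab1* was at 1260.4, 1422 and 1497 CPM in DEN and at 1853, 1412, 1291 and 1308 CPM in Sham (log2 -0.07 ± 0.13, SE, adjusted p = 0.788). Only Sham replicate 1 stood clearly above the rest. The inducible *Hsp90aa1* was at 174, 161 and 207 CPM in DEN and 258, 191, 154 and 165 CPM in Sham (log2 -0.09 ± 0.16, SE), and *Hsp90b1* (GRP94) of the ER averaged 347 ± 11.7 CPM in DEN and 384 ± 24.2 CPM in Sham (SD, n = 3 and 4, log2 -0.15, adjusted p = 0.231 in edgeR). *Hsp90aa1* shares 53.1% of its 75-base stretches with other genes. Other named genes with much shared sequence were *Hspb1* (47.3%), *Hspa8* (41.3%), *Dnajb6* (39.5%) and *Hspd1* (33.7%), and their levels carry the same limit. The mitochondrial chaperonin HSP60, *Hspd1*, averaged 149 ± 13.4 CPM in DEN and 176 ± 28.5 CPM in Sham (log2 -0.24, adjusted p = 0.250 in edgeR), and its lid *Hspe1* 51.3 ± 10.6 CPM in DEN and 57.5 ± 4.36 CPM in Sham (log2 -0.17, adjusted p = 0.476 in edgeR, SD, n = 3 and 4). Neither had an unadjusted p under 0.05, and neither was called by DESeq2. The 5 genes of both families had 95% intervals within 1.5-fold of no change.

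Among the nucleotide exchange factors, the BAG genes and *Hspbp1* moved little, and *Hsph1* is described above with the HSP110 family. All 7 genes of the BAG family with *Hspbp1* had a positive estimate, with log2 fold changes of 0.04 to 0.17, all had 95% intervals within 1.5-fold, and none was called by edgeR or DESeq2, with 1 at an unadjusted p under 0.05. *Bag5*, which has several BAG domains and is needed in heart muscle, was at 96.1, 97.2 and 95.5 CPM in DEN and at 91.1, 83.9, 85.1 and 81.6 CPM in Sham, without overlap (log2 0.17 ± 0.07, SE, adjusted p = 0.141). *Bag1*, an HSP70 exchange factor that also binds BCL2, averaged 101 ± 13.0 CPM in DEN and 93.2 ± 5.06 CPM in Sham, and *Hspbp1* 92.2 ± 6.08 CPM in DEN and 82.6 ± 4.65 CPM in Sham (SD, n = 3 and 4, log2 0.16, adjusted p = 0.234 in edgeR). *Bag3*, the partner of *Hspb8*, was at 71.2, 71.4 and 70.7 CPM in DEN and at 76.7, 71.4, 66.3 and 62.4 CPM in Sham (log2 0.04 ± 0.08, SE), so *Hspb8* was higher in DEN and its partner lay within the Sham range.

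Ordered by place in the cell, none of the 13 ER members was called by edgeR or DESeq2 (4 with an unadjusted p under 0.05, median log2 -0.02), and none of the 9 mitochondrial members was (1 with an unadjusted p under 0.05, 7 of 9 estimates negative, median -0.04). Of 14 cytosolic genes listed as induced by protein stress, *Hspb8* and *Dnajb1* were higher and 12 did not pass, with a median of 0.04. The others listed were *Hspb1*, *Hspa1a*, *Hspa1b*, *Hspa4*, *Hspa4l*, *Hspa8*, *Hsph1*, *Hsp90aa1*, *Hsp90ab1*, *Dnaja1*, *Dnajb4* and *Bag3*. The list thus includes *Hspa8* and *Hsp90ab1*, described above as constitutive, and is not made up of inducible genes only. This class differed between libraries within a group. Its median coefficient of variation over the Sham libraries was 19.3%, against 9.41% over all 74 genes and 8.96% over genes tested with a mean of 10 or more CPM, and it reached 52.6% in *Hspa1a* and 47.2% in *Hspa1b*. DEN replicate 4 was the highest of the 3 DEN libraries in 10 of the 14 genes (35.7% of all genes tested), and DEN replicate 3 the lowest in 9 (33.2%). The high place of DEN replicate 4 was shared by 8 of 13 ER members, 6 of 9 mitochondrial members and 41 of all 74 members (55.4%). By contrast, DEN replicate 3 was the lowest in 4 of the ER and 3 of the mitochondrial members. Sham replicate 1 was the highest of the 4 Sham libraries in 12 of the 14 genes (27.3% of all genes tested), and Sham replicate 3 the lowest in 10 (24.7%). Of the 9 mitochondrial members, Sham replicate 1 was the highest in 5 and Sham replicate 3 the lowest in 5. Of the 13 ER members these places held for 3 and 2. The ratio of Sham replicate 1 to Sham replicate 3 was 2.99 for *Hspa1a*, 2.79 for *Hspa1b*, 2.22 for *Hsph1* and 1.99 for *Hspa8*, but 0.967 for *Hspb1*, which went against the rest of the class. Relative to the Sham mean, the median log2 level of the class was 0.04, -0.14 and 0.15 in DEN and 0.29, -0.0033, -0.25 and -0.14 in Sham. The order of the library medians thus crossed the surgery groups, and so did the values of the 12 genes that did not pass. *Hspb8* and *Dnajb1* did not cross them. Over the DEN libraries, *Hspb8* was 0.92 to 1.18 and *Dnajb1* 0.42 to 0.67 above its Sham mean on the log2 scale. Immediate early genes were also highest in Sham replicate 1 among the Sham libraries (2591 CPM, against 1641 to 2033 CPM), and so were erythroid markers (10199 CPM, against 5070 to 6794 CPM). Their part in the spread of the class was not tested.

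**Figure D4:**
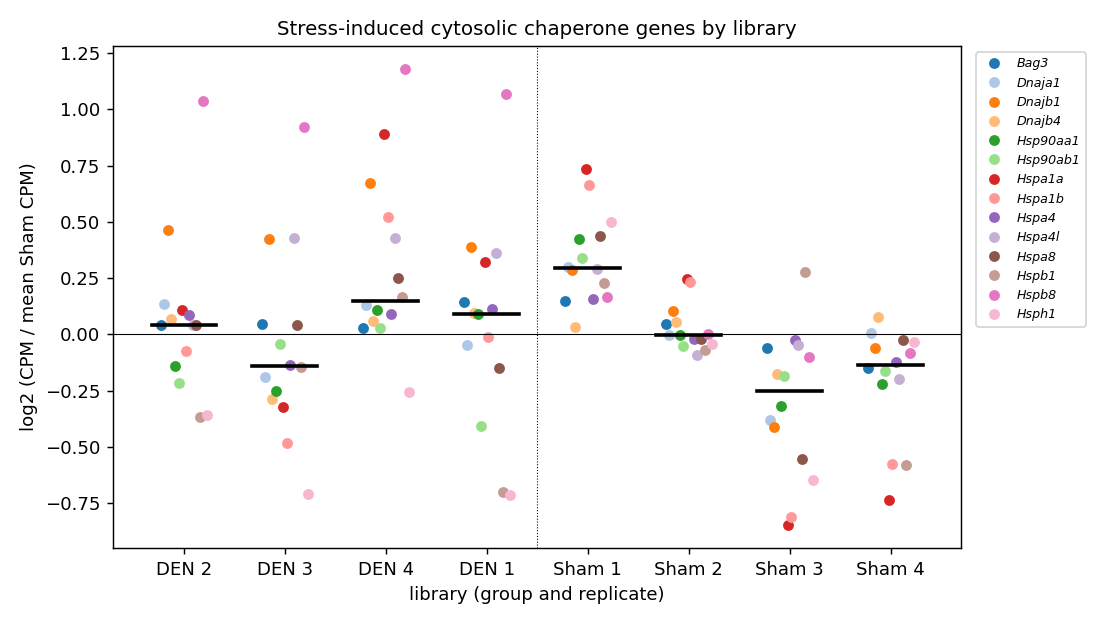
Log2 of CPM over the mean Sham CPM for the 14 genes of the stress-induced cytosolic class in each library (black line, median of the library). The class includes the constitutive *Hspa8* and *Hsp90ab1*. The medians run between -0.25 in Sham replicate 3 and 0.29 in Sham replicate 1, and those of the DEN libraries (-0.14 to 0.15) fall between them.

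Most matched genes of this class held the paired units in their promoter. A RefSeq promoter was found for 61 of the 74 genes, and the paired units GAANNTTC or TTCNNGAA occurred in 8 of 11 matched genes of the class (72.7%), in 1 of 11 ER genes, in 2 of 6 mitochondrial genes and in 5 of 33 others, against 16.97% of all genes. A triple unit, GAANNTTC followed by NNGAA or TTCNNGAA followed by NNTTC, which contains the pair, was found in *Hsph1*, *Dnajb6*, *Hspd1* and *Hspe1* (4 of 61 genes, 6.56%, against 0.662% of all genes). None of these 4 genes was called by edgeR. The windows of *Hspd1* and *Hspe1* overlap on opposite strands, and the same site counts for both genes. They are also the 2 mitochondrial genes with the pair. Of the 7 called genes, *Hspb8* and *Hspb6* had the pair, and *Hspb7*, *Dnajb1*, *Hspa2*, *Hspa12a* and *Hspa12b* had none in their windows. The *Hsph1* promoter, at chr5:149636266-149636565 on the minus strand in GRCm38.p6, is shown as the stress-class gene with the triple unit, in capitals along with a further pair.
Hsph1: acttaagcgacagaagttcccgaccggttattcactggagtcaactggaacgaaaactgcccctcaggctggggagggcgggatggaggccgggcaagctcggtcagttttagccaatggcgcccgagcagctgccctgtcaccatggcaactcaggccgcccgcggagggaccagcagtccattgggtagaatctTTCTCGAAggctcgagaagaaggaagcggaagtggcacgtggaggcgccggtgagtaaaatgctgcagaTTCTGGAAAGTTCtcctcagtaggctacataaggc
The triple begins at position 16 relative to the start and the separate pair at -54. No match says only that these letters are not in the window.

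Of the other genes of the folding machinery, on lists outside the symbol rule, few passed the test. None of 5 heat shock factor genes tested was called by edgeR or DESeq2, and none had an unadjusted p under 0.05. *Hsf1*, the main activator of the heat shock response, averaged 102 ± 7.40 CPM in DEN and 106 ± 6.10 CPM in Sham (SD, n = 3 and 4). Of 27 further co-chaperones of HSP90 and HSP70, 1 was lower and none was higher. This was *Cdc37l1*, a relative of the kinase co-chaperone CDC37, with 45.5 ± 3.13 CPM in DEN and 59.3 ± 2.92 CPM in Sham (SD, n = 3 and 4, log2 -0.38, adjusted p = 0.0153 in edgeR), a call that ended when DEN replicate 2 was left out (0.0705) and when DEN replicate 3 was (0.0515). None of the 16 subunits of the cytosolic chaperonin TRiC and of prefoldin was called by edgeR or DESeq2. Of these 16 genes 5 had an unadjusted p under 0.05, a count without a background share. The median log2 fold change of the 16 was 0.18. Among 22 ER folding factors *P4hb*, a protein disulfide isomerase, was higher (log2 0.29, adjusted p = 0.0480 in edgeR), and DESeq2 called 2. The call of *P4hb* was lost without DEN replicate 2 (adjusted p = 0.156), DEN replicate 3 (0.0947), DEN replicate 4 (0.0974), Sham replicate 1 (0.0787), Sham replicate 2 (0.112) or Sham replicate 3 (0.0913), with DEN replicate 1 added (0.089) and with RLE scaling (0.0505). None of 6 other small heat shock and mitochondrial chaperone genes and none of 4 J proteins without a family symbol was called by either tool, with 0 and 1 at an unadjusted p under 0.05.

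DEN replicate 1, which entered none of these tests, was above every Sham library for all 5 genes called higher: *Hspb7* 12.0 CPM, *Hspb8* 38.6 CPM, *Hspb6* 37.3 CPM, *Dnajb1* 104 CPM and *Hspa2* 69.4 CPM. For *Hspa12a* it was below every Sham library (60.0 CPM), and for *Hspa12b* it lay within the Sham range (8.71 CPM). The place of this library over all called genes is not given, so these places have no background beside them. DEN replicate 1 fell outside the range of the 7 other libraries in 29 of the 74 genes (39.2%), against 38.4% of all genes tested. Among these were *Hspb1* at 149 CPM and *Hsp90ab1* at 1106 CPM, on the low side. With this library added to DEN, 5 genes were higher (background 5.73%) and 2 lower (background 5.8%), and the lower ones were *Hspa12a* and *Dnajc1* in place of *Hspa12b*.

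Levels of different genes were compared per gene length, in the deposited RPKM (reads per kilobase of gene length, scaled to library size). *Hsp90ab1* (mean 464 in DEN, 489 in Sham) and *Hspa8* (404 in DEN, 374 in Sham) led, and together they made up 33.1% to 34.4% of the summed RPKM of the 74 genes in DEN and 30.0% to 38.1% in Sham. *Hspb1* (219 in DEN, 235 in Sham) and *Hspa5* (195 in DEN, 168 in Sham) followed. The 3 called small heat shock proteins stood well below *Hspb1* also after DEN, with *Hspb8* at 19.5 RPKM in DEN and 9.43 in Sham, *Hspb6* at 13.0 in DEN and 7.67 in Sham, and *Hspb7* at 5.68 in DEN and 1.39 in Sham. The lowest level was that of *Dnajc6*, the neuronal auxilin (0.116 in DEN, 0.0542 in Sham).

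**Figure D5:**
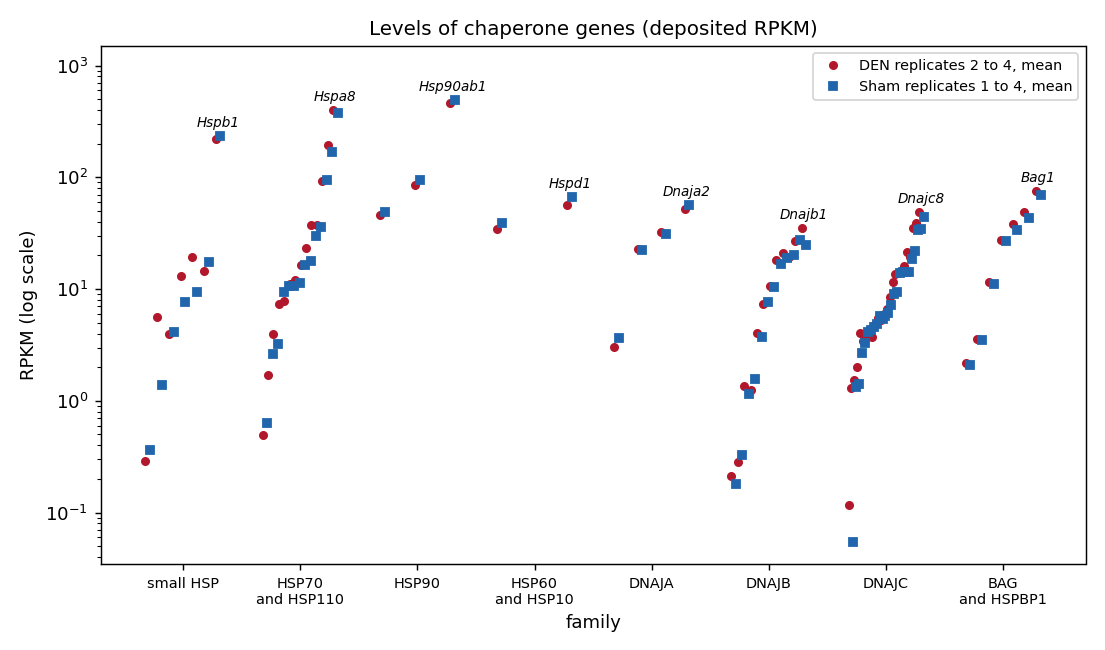
Mean RPKM of each of the 74 chaperone genes in DEN and in Sham, by family, on a log axis. *Hsp90ab1* and *Hspa8* lie at the top at 374 to 489 RPKM, and *Hspb7* at 5.68 RPKM in DEN and 1.39 RPKM in Sham is among the genes whose pair of points is farthest apart.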

How the data were processed

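MuSC RNA of 8 mice was amplified with SMART-Seq v4 and sequenced single-end at 75 bases. The authors ran bcl2fastq 2.20.0.422 and cutadapt 2.1 on the reads, aligned them with TopHat2 2.1.0 (GRCm38, at most 1 position per read) and deposited the gene counts of featureCounts 1.6.5, which ignored strand (versions from the submitters' processing notes). Reads of near-identical genes can be split or misplaced by such counting. For RPKM, the authors divided RPM by a gene length that is not named in the sources used here, and the RPKM table was used as deposited.

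Counts entered every test. Genes were kept by filterByExpr (minimum count 10, minimum total count 15) and compared, 3 DEN against 4 Sham libraries, with edgeR 4.0.16 (glmQLFit, robust; TMM; R 4.3.3), where the study used DESeq2. A gene was called at a Benjamini-Hochberg adjusted p under 0.05, SE is the log2 fold change over the root of F, and the biological coefficient of variation was 0.161. Pairs of libraries of 1 group differed by 16.4 to 46.7 times counting noise, so none was a repeat deposit. The fit was tested on simulated data. Alternatives were DESeq2 1.42.0, RLE and upper-quartile scaling, no filter, all 8 libraries, the replicate block, pseudogene rows added to their parent gene, and each library left out. Named were all called genes, the 3 of each family with the highest CPM, the inducible pair *Hspa1a* and *Hspa1b*, and, of the other lists, called genes or those with the highest CPM. *Hsph1*, *Bag3*, *Hspb2*, *Hspb11*, *Hspb3*, *Dnajb14*, *Dnajc1*, *Dnajc24*, *Dnajc27*, *Pax7* and *Cryab* were added outside this rule after their values were seen, and entered the alternatives too. The genes and lists were chosen with earlier results of these data known. The deposited RPM table was not used.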

Additional observations from a re-analysis of the deposited data

Results flagged for a closer look

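Among 88 groups of 4 libraries checked, 3 had 1 library far from the rest, where chance flags about 1 in 20. Over all 4 DEN libraries, DEN replicate 4 stood apart for *Bag1*, at 116 CPM against 93.8 to 95.6 CPM in the other DEN libraries, with a gap of 0.918 of the range. The same library stood apart for *Hspa9*, at 417 CPM against 390 to 394 CPM in the other DEN libraries, with a gap of 0.844 of the range. DEN replicate 1 stood apart for *Bag3*, at 76.5 CPM against 70.7 to 71.4 CPM in the other DEN libraries, with a gap of 0.871 of the range. None of these genes was called. DEN replicate 4 was the highest of the 3 compared DEN libraries in 10 of the 14 genes of the stress-induced cytosolic class. It was also the highest in 41 of all 74 genes (55.4%), against 35.7% of all genes tested.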

How the results depend on the processing

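Of 616 values of named genes under alternative settings, 555 kept direction and side of the threshold, 31 lost their call, 1 gained one (*Dnajc1* with all 8 libraries) and 29 changed sign. All sign changes were in genes that had not passed. The count of higher members was 5, with 4 under the replicate block and 3 to 5 when 1 library was left out (3 without DEN replicate 4). The count of lower members was 2, with 0 under the replicate block and 0 to 2 when 1 library was left out (0 without DEN replicate 2, DEN replicate 3 or Sham replicate 3). Same-numbered DEN and Sham libraries deviated with correlations of 0.04, 0.02 and -0.23, and pairs with different numbers with -0.15 to 0.15. With so few libraries these values cannot settle whether a shared number marks a shared batch. Under that block the sign changed for *Hspa9* (0.019), *Hsp90ab1* (0.057), *Hsp90aa1* (0.085) and *Hspb1* (0.0051, all log2), and *Hspa2*, *Hspa12a* and *Hspa12b* did not pass (adjusted p = 0.0691, 0.0742 and 0.0542 in edgeR), nor did *Cdc37l1* (0.0582) and *P4hb* (0.106). With all 8 libraries *Hspb3* changed sign (8.92e-05). Over the fits that left out 1 library, log2 fold changes ran between -0.079 and 0.014 for *Hspa9*, -0.13 and 0.058 for *Hsp90ab1*, -0.19 and 0.085 for *Hsp90aa1*, -0.25 and 0.021 for *Hspb1*, -0.078 and 0.15 for *Dnaja1*, -0.011 and 0.091 for *Dnaja3*, -0.068 and 0.0094 for *Dnajb11*, -0.10 and 0.029 for *Dnajb6*, -0.0083 and 0.21 for *Dnajc8*, -0.26 and 0.36 for *Hspa1b*, -0.090 and 0.67 for *Hspa1a*, -0.033 and 0.29 for *Hspa8*, -1.03 and 0.21 for *Hspb3*, -0.20 and 0.013 for *Hspb11*, -0.0090 and 0.090 for *Bag3*, and -0.10 and 0.0021 for *Hsf1*. The cause was not tested. Over all genes, 1853 were called, 1335 under the block, 2613 by DESeq2 and 1098 to 1814 when 1 library was left out. Scaling by RLE or the upper quartile moved the median of all genes by at most 0.0066 (log2) and changed no call of a named gene but *P4hb* under RLE.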
